A study of Mus musculus with 9 samples.

Results

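Genes that copy, untangle and mend DNA were examined for peaks of SAFB (scaffold attachment factor B), which binds RNA in the nucleus, in mouse embryonic stem cells. The members are the protein-coding genes of the GENCODE M21 annotation whose symbols begin with Rad, Fanc, Brca, Xrcc, Ercc, Mcm, Orc, Rfc, Msh, Mlh, Smc or Top and a number or letter, together with the subunits of DNA polymerases alpha, delta and epsilon and polymerase theta. This name rule took 100 of the 21951 protein-coding genes and used no measured value, but it was chosen with earlier results of these data known. It also took a few genes whose work lies elsewhere, such as Mcm3ap, which acts in export of messenger RNA, and Fancd2os, which is named only for lying opposite Fancd2.

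The series sequenced RNA recovered by immunoprecipitation (RIP-seq). The 9 libraries were made with FLAG antibody from safb1/2 dko clone 13 carrying a full-length SAFB1 plasmid (1 library), with SAFB1 antibody from WT cells (3, from the parent line and clones 20 and 44), with SAFB1 antibody from safb1/2 dko clones 4 and 13 (2), with FLAG antibody from safb1/2 dko clone 13 carrying an eGFP plasmid (1), and with IgG from WT cells (2, from the parent line and clone 20). The strain is CAST/B6 Male Rosa26-RMCE throughout, and doxycycline was given for 3 days to every sample, controls included. The genotype label of the library with the SAFB1 plasmid reads WT while its title names a dko clone, and the title was followed. Both plasmid libraries come from a single dko clone.

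The deposited file is 1 list of 30998 stranded peaks, whose names begin with wt_saf, for the whole series. It holds positions and no value per library. Antibodies and genotypes could therefore not be compared, depth is unknown, there are no replicates, and every result is a description without a test. Intervals are 95% Wilson intervals, which treat peaks or genes as independent and cover counting error only. A peak was counted for a gene when its midpoint lay in the gene on the same strand (a sense peak), and it was called exonic when the midpoint lay in an exon of any transcript of that gene. Where a gene held no peak, none was in this list, which does not show that SAFB was absent. Of 10 pluripotency markers, 4 had a sense peak (Esrrb, Zfp42, Tfcp2l1 and Tet1), and Pou5f1, Sox2, Nanog, Klf4, Dppa4 and Utf1 had none. The list gives no RNA level, so this does not measure the identity of the cells.

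Replication starts where the origin recognition complex (Orc) loads the Mcm helicase, and it proceeds with DNA polymerases and a sliding clamp that the Rfc complex places on DNA. Topoisomerases relieve the twist ahead of the fork, and the Smc proteins form rings that hold or fold chromosomes (cohesin, condensin and the complex of Smc5 and Smc6). Lesions are mended by homologous recombination (Brca and most Rad genes), the Fanconi anaemia pathway (Fanc), nucleotide excision repair (Ercc), mismatch repair (Msh and Mlh) and joining of broken ends (Xrcc4, Xrcc5, Xrcc6 and Polq). Dividing embryonic stem cells use these pathways heavily.

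SAFB peaks were found in 41 of the 100 genes, which together held 128 sense peaks, 34 in exons and 94 in introns. Among all protein-coding genes 26.2% had a sense peak. The counts were uneven. Xrcc4 and Rad51b held 16 peaks each, all in introns. Smc6, Polq and Top1 followed with 7 each, Pola1 with 6, and Fancc and Ercc6l2 with 5 each. In Smc6 and Top1, unlike Polq, 6 of the 7 peaks were exonic. At the other end 16 genes held a single peak and 59 held none, among them all 6 genes of the Mcm2 to Mcm7 helicase. A total of 25 genes had at least 2 sense peaks, against 13.8% of all protein-coding genes.

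**Figure D1:**
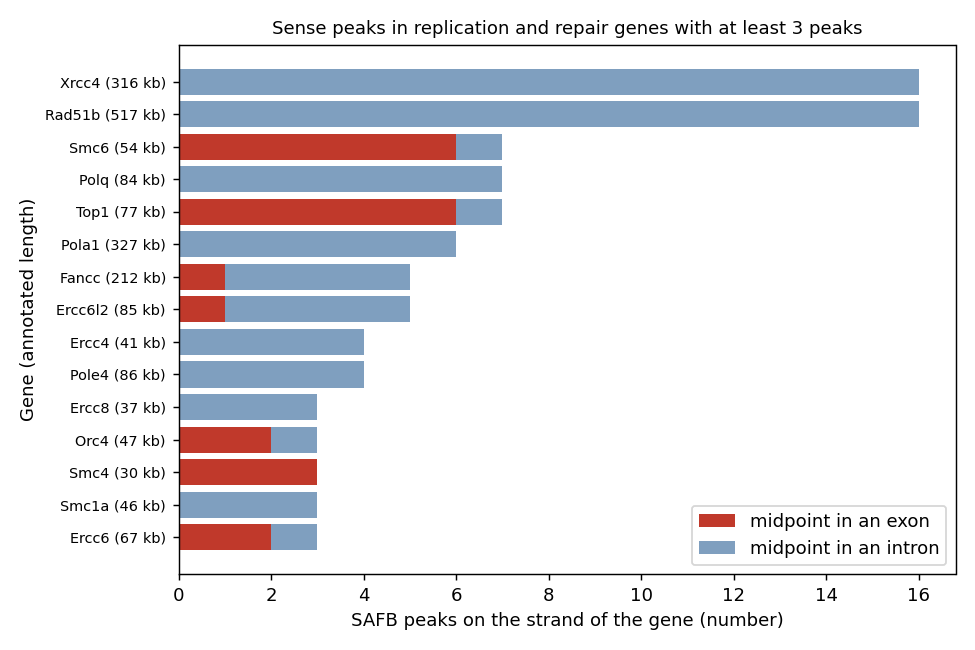
Number of sense SAFB peaks (horizontal axis) in each of the 15 replication and repair genes with at least 3 peaks, with the annotated gene length in kb beside the symbol; red is the part with the midpoint in an exon and blue the part in an intron. Xrcc4 and Rad51b have 16 intronic peaks each, while 6 of 7 peaks of Smc6 and of Top1 are exonic.

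Gene length went with the presence of a peak. The 41 genes with a peak had a median length of 53.9 kb, and the 59 without one 18.9 kb. Across the 100 genes Spearman's rho between length and number of peaks was 0.62, against 0.49 across all 21951 protein-coding genes, a description over genes that share 1 list. None of the 12 genes under 10 kb had a peak (0 of 12, interval up to 24.2%), where 6.06% of other protein-coding genes of that length had one. From 10 to 30 kb the count was 5 of 35 (14.3%, 6.26 to 29.4), against 21.4% of other genes. From 30 to 100 kb it was 31 of 47 (66.0%, 51.7 to 77.8), against 42.2% of other genes, and the density was 28.9 peaks per Mb of gene, against 16.7. The 3 genes of 100 to 300 kb and the 3 over 300 kb are too few to compare. Summed over these 5 classes, the shares of other protein-coding genes would give 32.1 genes with a peak in place of 41, and 93.4 peaks in place of 128. The higher count came from the middle class. RNA levels were not used, so these shares are relative to length alone, and the part that expression has in them was not tested.

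**Figure D2:**
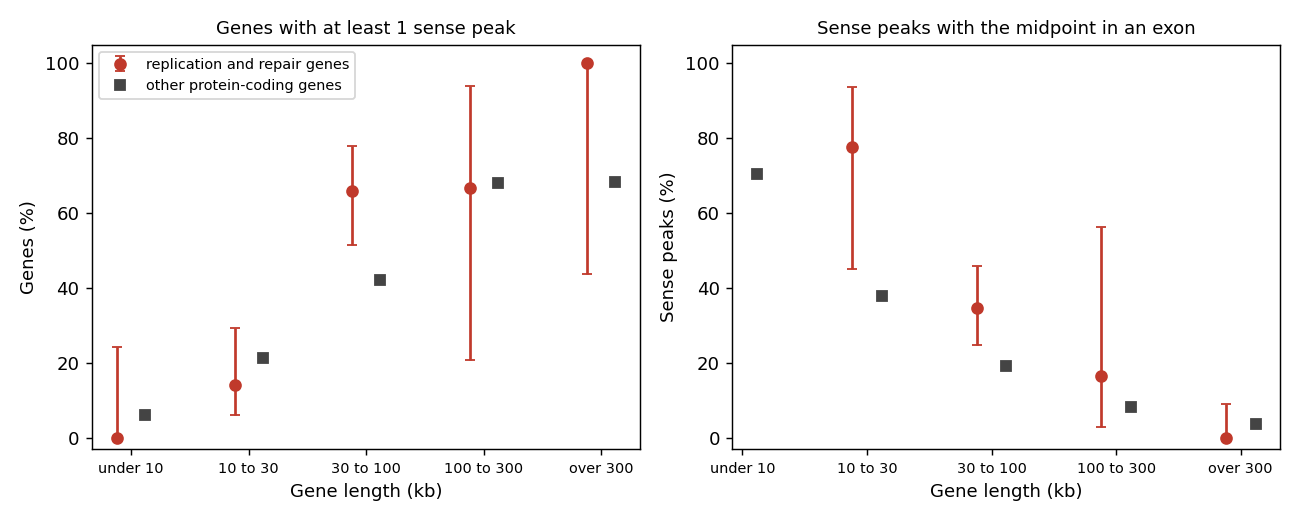
Share of genes with at least 1 sense peak (left) and share of sense peaks with the midpoint in an exon (right), by gene length in kb; red circles are replication and repair genes with 95% Wilson intervals and dark squares are other protein-coding genes. From 30 to 100 kb, 66.0% of the replication and repair genes have a peak, against 42.2% of other genes.

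Among the factors that start replication, the origin recognition complex and the helicase differed in counts. Of the 6 Orc genes 4 held peaks, where their lengths would give 2.17 by the 5 classes. Orc4 (chromosome 2) held 3, of which 2 lay in the 3' UTR of its last exon, 1300 and 627 bases wide. Orc1, the large subunit, and Orc5 held 2 each, and Orc3 held 1, all in introns, while Orc2 and Orc6 held none. Of the 10 genes with the Mcm stem only Mcm9, a helicase that works with Mcm8 in recombination, held a peak, and it was intronic. Their lengths would give 2.40. Mcm2 to Mcm7 are 7.84 to 28.1 kb long, short for this group, and Mcm8, Mcm10 and Mcm3ap also lacked a peak.

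The polymerase subunits held 20 peaks in 5 of 11 genes, none of them exonic, where their lengths would give 3.19 genes. Pola1, the catalytic subunit of polymerase alpha on the X chromosome (93304767 to 93632155 in mm10, minus strand), is 327 kb long and held 6, of which 3 lay in intron 36. Polq, the end-joining polymerase theta (chromosome 16, 83.6 kb), held 7 with midpoints within its first 50.5%, 2 each in introns 4, 9 and 15 and 1 in intron 14. Peaks covered 10.0% of Polq, the largest share among these 41 genes. In Pole4, an accessory subunit of polymerase epsilon, all 4 peaks lay beyond the 6.23 kb of its principal coding transcript, within the annotated gene of 86.4 kb. Pole, the catalytic subunit, held 2, of which 1 also lay in Gm15791 on the same strand, and Pola2 held 1. The 4 Pold genes, Pole2 and Pole3 held none. In the clamp loader, Rfc1, its large subunit, held 2 peaks in coding exons 9 and 12, and Rfc2 held 1 in an intron and 1 in the 3' UTR. Rfc3, Rfc4 and Rfc5, which are 8.49 to 13.8 kb long, held none.

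Of the 34 exonic peaks 17 lay in Top1 and 3 Smc genes. Among the topoisomerases only Top1 had any. This gene, which relaxes supercoiled DNA by cutting a single strand, lies on chromosome 2 (160645888 to 160722764, plus strand) and has 21 coding exons in its principal transcript. Narrow peaks of 182 to 218 bases sat on exons 4, 6, 7, 8, 9 and 10, 1 exon to a peak, and a seventh peak of 622 bases spanned exons 12 and 13, with its midpoint in the intron between them. The 6 narrow peaks each covered a whole exon of 76 to 124 bases and reached 40 to 54 bases before it and 16 to 58 bases after it. Exons 5 and 11 inside this stretch, and the exons before and after it, had no peak in the list. Numbers in the peak names span 9 from the first to the last of these 7 peaks, so 77.8% are in the list. What the missing numbers stand for is not given, so a lack of signal on exons 5 and 11 was not shown. Across all protein-coding genes 14 had 6 or more exonic peaks, Top1 and Smc6 included. The part of each exon under these 6 peaks is given here, 5′ to 3′ on the RNA strand, to show what the run of peaks covers. It was read from the GENCODE M21 transcript (GRCm38, which mm10 names), with capitals marking every AGAAGA, its shifted form GAAGAA and its shifted form AAGAAG.
Top1 exon 4, chr2:160682651-160682774, plus strand: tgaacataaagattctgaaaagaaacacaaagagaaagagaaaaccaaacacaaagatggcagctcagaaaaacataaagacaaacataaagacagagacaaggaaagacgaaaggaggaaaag
Top1 exon 6, chr2:160687648-160687743, plus strand: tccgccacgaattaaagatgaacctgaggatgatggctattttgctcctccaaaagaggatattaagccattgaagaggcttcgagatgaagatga
Top1 exon 7, chr2:160690277-160690352, plus strand: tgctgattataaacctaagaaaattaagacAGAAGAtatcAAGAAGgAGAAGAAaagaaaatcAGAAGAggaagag
Top1 exon 8, chr2:160693696-160693802, plus strand: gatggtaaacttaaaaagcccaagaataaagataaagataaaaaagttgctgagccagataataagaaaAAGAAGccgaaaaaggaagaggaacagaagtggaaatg
Top1 exon 9, chr2:160698124-160698239, plus strand: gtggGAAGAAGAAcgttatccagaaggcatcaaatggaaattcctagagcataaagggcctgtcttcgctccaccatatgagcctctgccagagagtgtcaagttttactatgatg
Top1 exon 10, chr2:160702702-160702823, plus strand: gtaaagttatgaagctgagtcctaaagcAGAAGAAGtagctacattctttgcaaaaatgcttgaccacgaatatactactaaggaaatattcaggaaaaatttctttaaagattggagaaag

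Exons 4, 7 and 8 were the richest in A and G of all 21 coding exons of Top1, with 79.0%, 77.6% and 77.6%. Exons 6, 9, 10, 12 and 13, also under peaks, had 58.3%, 55.2%, 60.7%, 61.2% and 51.7%, within the range of exons without a peak (47.8% to 69.9%). Of 125475 coding exons of 76 to 278 bases in principal transcripts of all protein-coding genes, 0.209% had at least 75% purines. Exons 4, 7 and 8 of Top1 thus had a purine content that few coding exons reach, while its other 5 exons under peaks did not.

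The Smc subfamily held 16 peaks in 5 of 7 genes, and 11 of the 16 were exonic. Its lengths would give 2.74 genes with a peak. Smc6 (chromosome 12, 11265886 to 11319785, plus strand) had narrow peaks of 155 to 226 bases on exons 5, 8, 11 and 19, a 708-base peak over exons 9 and 10 whose midpoint falls in a coding exon of another isoform, a 107-base peak in the 3' UTR and a single intronic peak of 1581 bases. Its partner Smc5 held 1 peak, in intron 1. In condensin, which compacts mitotic chromosomes, Smc4 (chromosome 3) had peaks of 318, 262 and 135 bases on coding exons 11, 12 and 16, and Smc2 (chromosome 4) had peaks of 219 and 136 bases on exons 12 and 14. In cohesin, which holds sister chromatids, Smc1a on the X chromosome had 3 peaks of 399 to 688 bases, each over a pair of exons and the short intron between them (exons 2 and 3, 4 and 5, 6 and 7). Exon bases made up 64.4% to 73.9% of them, but their midpoints lay 5 to 30 bases outside an exon, so the midpoint rule called them intronic. The only peak of Top2b had the same shape, over exons 29 and 30. Smc3, the meiotic Smc1b and the cohesin clasp Rad21 had no peak.

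**Figure D3:**
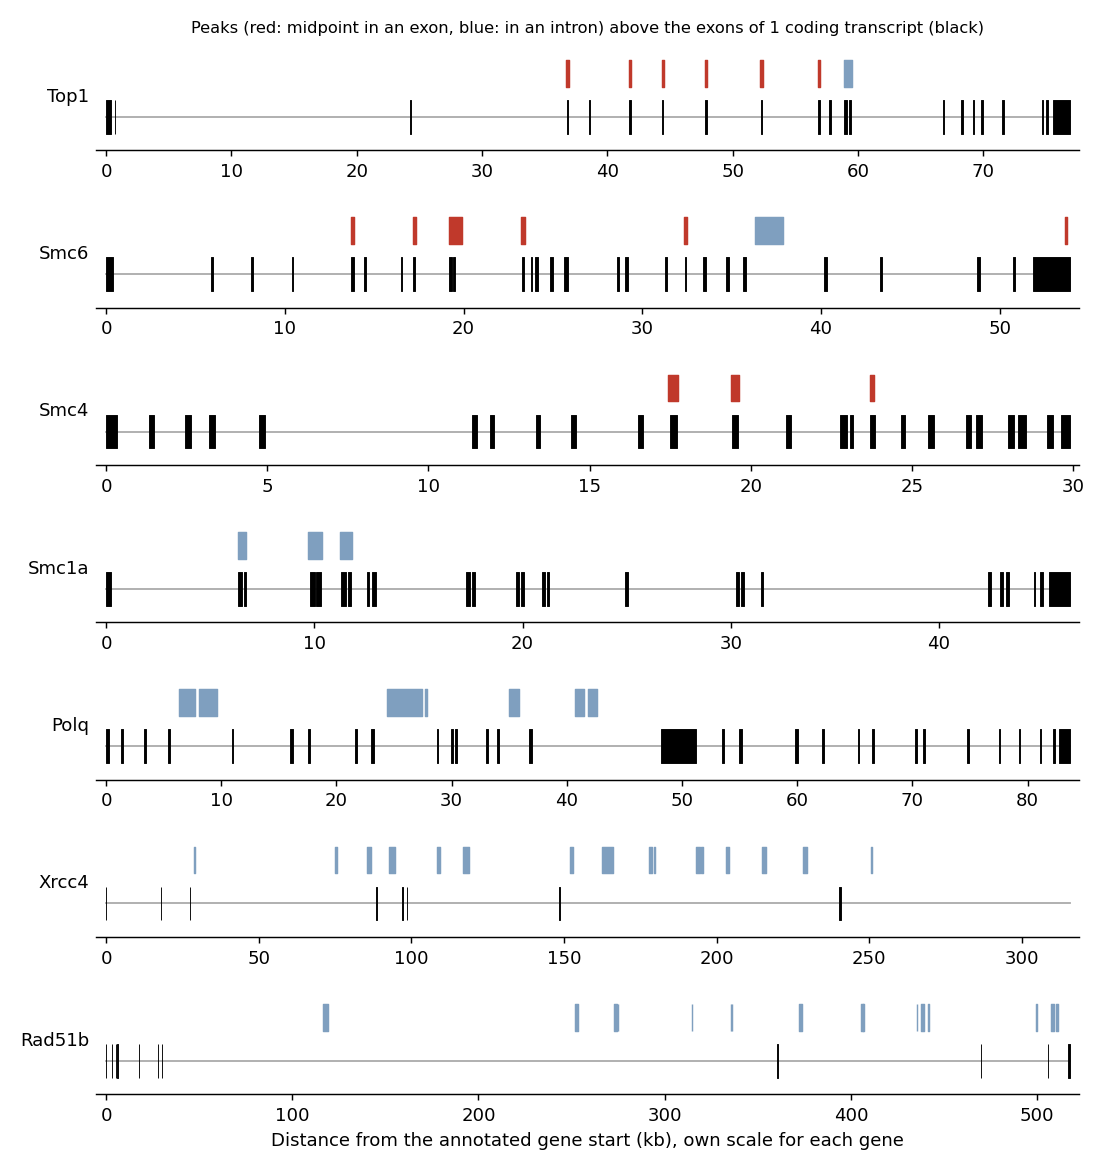
Positions of sense SAFB peaks along 7 genes, as distance from the annotated gene start in kb with a separate scale for each gene; black boxes are exons of the principal coding transcript, red boxes are peaks with the midpoint in an exon and blue boxes peaks with the midpoint in an intron. In Top1, Smc6 and Smc4 narrow peaks stand over single exons, in Smc1a each peak stands over a pair of exons, and in Polq, Xrcc4 and Rad51b peaks stand over introns.

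Single exons under coding peaks of Smc6, Smc4, Rfc1 and Smc2 are given for comparison with those of Top1, again with the purine hexamers in capitals. Where the peak covered only part of an exon, the part under it is given.
Smc6 exon 5, chr12:11279605-11279741, plus strand: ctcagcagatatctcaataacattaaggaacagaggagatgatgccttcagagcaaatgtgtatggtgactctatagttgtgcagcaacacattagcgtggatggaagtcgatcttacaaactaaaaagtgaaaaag
Smc6 exon 8, chr12:11283071-11283172, plus strand: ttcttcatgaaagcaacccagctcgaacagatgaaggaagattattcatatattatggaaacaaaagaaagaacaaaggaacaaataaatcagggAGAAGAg
Smc6 exon 11, chr12:11289128-11289274, plus strand: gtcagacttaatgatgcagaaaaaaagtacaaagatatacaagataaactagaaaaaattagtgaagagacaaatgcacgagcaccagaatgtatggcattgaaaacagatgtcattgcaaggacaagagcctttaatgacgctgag
Smc6 exon 19, chr12:11298262-11298342, plus strand: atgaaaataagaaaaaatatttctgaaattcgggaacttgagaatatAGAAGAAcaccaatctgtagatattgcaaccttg
Smc4 exon 11, chr3:69022226-69022459, plus strand: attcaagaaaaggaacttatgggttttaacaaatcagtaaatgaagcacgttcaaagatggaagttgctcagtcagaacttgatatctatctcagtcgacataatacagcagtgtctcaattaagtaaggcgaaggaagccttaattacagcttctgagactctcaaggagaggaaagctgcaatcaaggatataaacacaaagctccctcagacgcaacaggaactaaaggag
Smc4 exon 12, chr3:69024165-69024350, plus strand: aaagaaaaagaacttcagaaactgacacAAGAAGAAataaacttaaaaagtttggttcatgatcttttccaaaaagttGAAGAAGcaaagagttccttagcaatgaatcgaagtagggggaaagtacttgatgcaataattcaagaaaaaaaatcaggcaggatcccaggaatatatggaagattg
Smc4 exon 16 (part), chr3:69028445-69028563, plus strand: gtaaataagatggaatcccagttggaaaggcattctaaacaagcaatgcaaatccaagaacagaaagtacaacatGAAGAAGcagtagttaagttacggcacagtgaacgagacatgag
Rfc1 exon 9, chr5:65293658-65293935, minus strand: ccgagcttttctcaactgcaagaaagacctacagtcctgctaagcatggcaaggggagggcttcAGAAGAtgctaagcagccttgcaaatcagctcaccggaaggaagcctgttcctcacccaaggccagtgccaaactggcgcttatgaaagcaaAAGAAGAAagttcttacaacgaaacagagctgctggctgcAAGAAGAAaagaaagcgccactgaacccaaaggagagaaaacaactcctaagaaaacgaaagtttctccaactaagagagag
Rfc1 exon 12, chr5:65284849-65284953, minus strand: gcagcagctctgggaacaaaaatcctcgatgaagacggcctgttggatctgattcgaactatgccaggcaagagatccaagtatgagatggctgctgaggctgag
Smc2 exon 12, chr4:52459021-52459138, plus strand: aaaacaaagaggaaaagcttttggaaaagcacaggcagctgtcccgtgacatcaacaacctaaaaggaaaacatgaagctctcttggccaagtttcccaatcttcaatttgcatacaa
Smc2 exon 14 (part), chr4:52461050-52461140, plus strand: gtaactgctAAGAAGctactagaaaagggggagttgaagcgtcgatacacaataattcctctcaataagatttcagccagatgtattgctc

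Narrow peaks on single coding exons came mostly from Smc and Top genes. All 22 coding peaks lay in 8 genes (Top1, Smc6, Smc4, Smc2, Rfc1, Ercc6, Fancm and Ercc5), and 17 of them covered a whole exon, with a median of 46 bases before it and 39 after it. At most 300 bases wide were 16 of the 22 coding peaks (72.7%, 51.8 to 86.8), against 464 of 1503 in other protein-coding genes (30.9%, 28.6 to 33.3). Of these 16, 14 lay in Top1 (6), Smc6 (4), Smc4 (2) and Smc2 (2), and the others were 1 each in Ercc6 and Rfc1. The median width of exonic peaks was 222.5 bases, against 780 in other protein-coding genes. Intronic peaks showed the opposite order of widths, with a median of 911.5 bases, against 646. Peaks of 1 gene share their source, and 17 of the 34 exonic peaks came from the Smc and Top subfamilies.

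**Figure D4:**
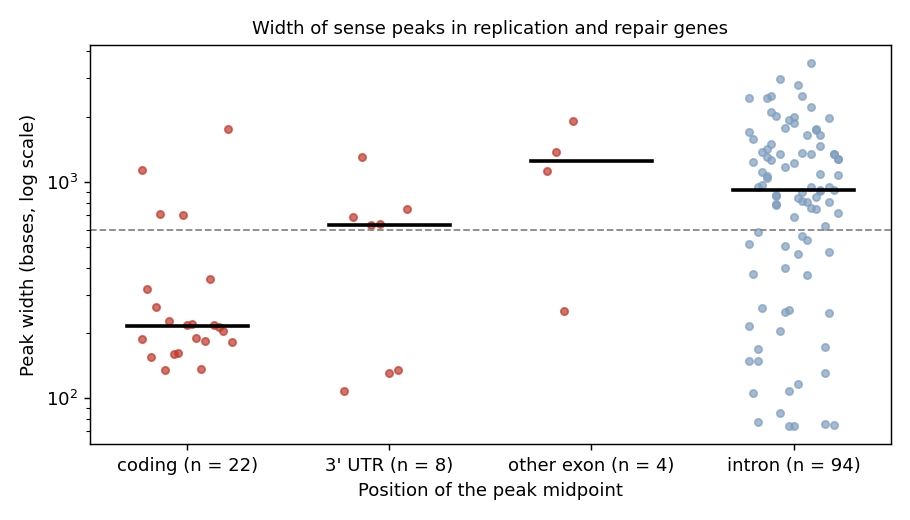
Width in bases (log scale) of each of the 128 sense peaks in replication and repair genes, by the position of the midpoint; points are peaks, black bars are medians and the dashed line is the median of the whole list, 596 bases. Most of the 22 coding peaks lie under 300 bases, while the intronic peaks have a median of 911.5.

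Exonic peaks were more frequent in these genes than in protein-coding genes at large. Their share was 34 of 128 (26.6%, 19.7 to 34.8), against 14.6% in other protein-coding genes. Taking the shares of other genes in the same 5 length classes would give 15.5%, and placing peaks by exon length alone 11.4%. An excess over placement by exon length was also seen across all protein-coding genes, with 14.6% against 9.38%. Counting each gene with a peak once, the mean share was 31.6%, against 25.0%. By width, among peaks narrower than the median of the list 22 of 52 were exonic (42.3%, 29.9 to 55.8), against 12.6% elsewhere, while among the wider ones 12 of 76 were (15.8%, 9.27 to 25.6), against 16.3%. Without the Smc and Top subfamilies, an alternative chosen after seeing the data, the exonic share was 17 of 103 (16.5%, 10.6 to 24.9), and among the narrower peaks 6 of 31 (19.4%, 9.19 to 36.3), an interval that includes the 12.6% elsewhere. At least 1 exonic peak was found in 17 genes, against 9.72% of all protein-coding genes, at least 2 in 8 genes, against 2.21%, and at least 3 in Top1, Smc6 and Smc4, against 0.697%. These shares were not matched for gene length. Among protein-coding genes of 30 to 100 kb, 12.9% had at least 1 exonic peak and 3.13% at least 2. By feature, 22 of the 34 were coding, 8 fell in 3' UTRs and 4 in exons of transcripts without a coding sequence there, while 5' UTRs held none.

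Purine content under the exonic peaks was compared with the rest of the same transcript, since SAFB proteins have been described to prefer purine-rich RNA. The median over the 17 genes with an exonic peak was 3.39 percentage points above the rest of the transcript, against 2.29 over 2107 other protein-coding genes. It was positive in 11 of the 17 genes and in 25 of the 34 peaks (73.5%), against 68.3% of peaks in other genes. Top1 had the highest value (13.0), followed by Ercc6 (11.3), Rad52 (8.41) and Smc4 (8.07), and Fancc the lowest (-3.61). For the 22 coding peaks the median over their 8 genes was 5.13, against 3.14 in other protein-coding genes, while for the 8 peaks in 3' UTRs it was -2.07 over 6 genes, against 0.958. In all these values the rest of the transcript includes UTRs. With coding bases only on both sides the median was 1.11 over 9 genes, positive in 6. They are the 8 genes with coding peaks and Orc4, which has a 3' UTR peak that reaches coding bases. The median is the value of that Orc4 peak. Other protein-coding genes were not measured with coding bases only. With the 7 genes whose peaks lay wholly inside 1 exon the median was -1.67, positive in 3. All of those peaks lay in 3' UTRs or in exons without a coding sequence there, and Top1 is not among those genes. The direction thus depends on which peaks are taken, and this last setting does not bear on the coding peaks.

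Compared exon by exon, those under peaks were richer in purines in 5 of the 6 genes with at least 2 coding peaks. In Smc6 the 6 exons with most of their length under a peak had 64.0% purines, against 57.8% in its other 20 coding exons. The values were 64.1% against 60.5% in Top1, 63.4% against 58.9% in Smc4, 62.2% against 54.5% in Ercc6 and 60.1% against 58.9% in Rfc1. In Smc2 they were lower, 55.5% against 59.97%. These 3 hexamers were searched on the RNA strand with overlapping matches counted. They occurred 16.4 times per kb in the exons of Top1 under peaks, against 7.54 in its other exons. Exons under peaks also had more in Rfc1 (18.3 against 7.97), Smc4 (12.2 against 6.09), Ercc6 (8.23 against 4.18) and Smc6 (7.29 against 6.14). They had fewer in Smc2 (4.20 against 11.7). These rates rest on few matches under peaks, 7 each in Rfc1, Smc4 and Ercc6, 5 in Smc6 and 1 in Smc2. All 7 of Rfc1 lay in exon 9, and all 7 of Ercc6 lay in exon 5. At least 1 of these hexamers was in 10 of the 17 exon stretches printed above for Top1, Smc6, Smc4, Smc2 and Rfc1. The share was 26.3% of coding exons of 76 to 278 bases in all protein-coding genes, with or without a peak, and 34.5% in the 100 genes. Coding exons without a peak in the same 5 genes also held these hexamers. The matches there were 10 in Top1, 16 in Smc6, 20 in Smc4, 24 in Rfc1 and 39 in Smc2. The share of those exons with a hexamer was not counted, so 10 of 17 is not a comparison within these genes. Among coding peaks, 14 of 22 in the 100 genes held a hexamer, against 1129 of 1503 in other protein-coding genes, where fewer peaks were narrow. Per kb of exon under these peaks the counts were 8.21 and 5.49. In the rest of the same transcripts the means over peaks were 5.62 and 4.09 per kb. The 100 genes were thus also higher outside the peaks. Exons with and without a peak overlapped in purine content in all 6 genes.

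**Figure D5:**
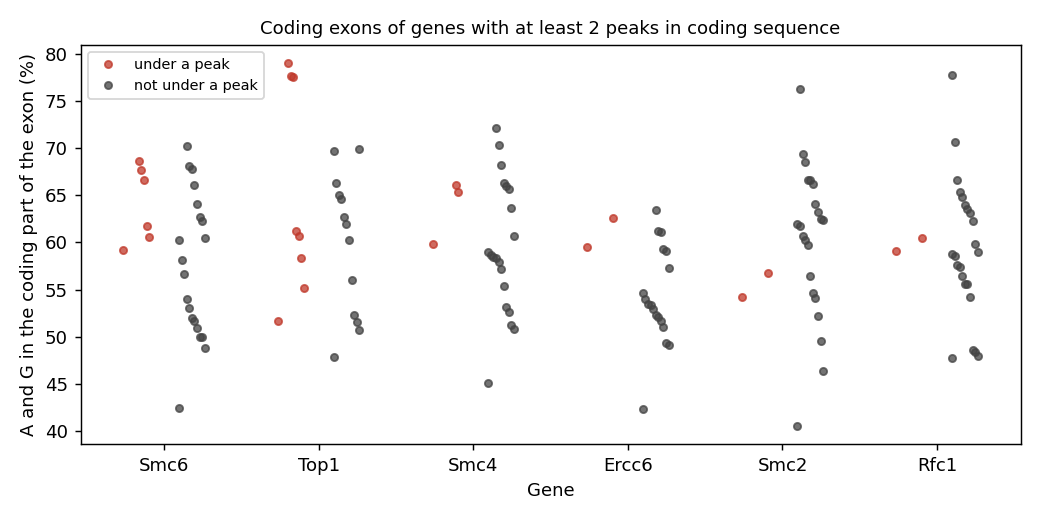
Percent A and G in the coding part of each exon of the principal transcript of the 6 genes with at least 2 peaks in coding sequence; red points are exons with most of their length under a peak and dark points the other coding exons. Of the 8 red points of Top1 3 lie above all its dark points, and in the other genes red points lie within the range of the dark ones.

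In Rad51b and Xrcc4 every peak was intronic, and in other protein-coding genes over 300 kb 3.72% of peaks were exonic. Rad51b, which acts in homologous recombination (chromosome 12, 79297282 to 79814690, plus strand, 517 kb), held 16 peaks of 74 to 2814 bases. Its first peak lay 22.8% into the gene, and intron 7, which spans 330 kb, held 7 peaks, while the shorter intron 8 held 6. Xrcc4, the scaffold of DNA ligase IV in end joining (chromosome 13, 89774027 to 90089608, minus strand, 316 kb), held 16 peaks of 148 to 3546 bases, 9 of them in intron 7 of 91.5 kb. Per Mb of gene Xrcc4 held 50.7 peaks and Rad51b 30.9. Among the 567 protein-coding genes over 300 kb, 18.7% held at least 16 peaks. The 2 genes held 32 of the 128 peaks, and without them, an alternative chosen after seeing the data, 96 remained.

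Other recombination genes held few peaks. Brca2, which acts at broken DNA ends in this pathway, held 1 intronic peak, Rad52 held 1 in an exon of a transcript that is not coding there, and Rad54b held 1 in a 3' UTR that also belongs to Fsbp. Brca1, Rad50, Rad51c, Rad51d, Rad51ap1, Rad51ap2, Rad54l, Xrcc2 and Xrcc3 held none. Xrcc5, a subunit of the Ku end-binding complex, held 1, and Xrcc6 and Xrcc1 held none.

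In the Fanconi anaemia pathway 4 of 10 genes held 9 peaks, where their lengths would give 3.34 genes. Fancc, of the core complex, held 5, of which 1 lay in the 3' UTR. Fancm, a DNA translocase, held 2, of which 1 covered 93.9% of its large coding exon 14 and was 1755 bases wide. Fancl, the ubiquitin ligase, held 1, in a place shared with Gm12713, and Fanca held 1. Fancb, Fancd2, Fance, Fancf, Fancg and Fanci held none.

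Of the nucleotide excision repair genes Ercc4, a nuclease subunit, held 4 peaks, and Ercc8, which acts in transcription-coupled repair, held 3, all with intronic midpoints. Ercc6, its partner, held 3, of which 2 were coding, with 160 bases over exon 3 and 702 bases over 94.1% of exon 5. Ercc5, the other nuclease, held 1, which covered its whole exon 8 of 1074 bases. Ercc1, Ercc2, Ercc3 and Rad23b held none. The related Ercc6l2 held 5 peaks, of which 3 lay beyond its principal transcript, and Ercc6l held none.

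Among mismatch repair genes Msh3, which recognises mismatches, held 1 intronic peak, and Msh4, Msh5, Msh6 and Mlh3 held none. Of the checkpoint and damage tolerance genes Rad1, a subunit of the checkpoint clamp, held 2 peaks in the 3' UTR of an isoform that extends past its principal transcript, at a gene length of 13.0 kb, the shortest gene with a peak. Rad9b held 1 peak in an exon that is not coding, and Rad18, a ubiquitin ligase, held 1 of that kind and 1 in an intron. Rad9a and Rad17 held none. Of the other topoisomerases Top3a held 1 intronic peak of 76 bases, and Top2a, Top3b and the mitochondrial Top1mt held none. Rad21l, Rad54l2, Mcm3ap and Fancd2os also held none.

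Length did not decide every case. Of the 22 genes over 60 kb 4 lacked a peak, namely Rad54l2 (101 kb), Smc1b (67.3 kb), Fancd2 (65.3 kb) and Brca1 (63.2 kb). Of the 47 genes under 30 kb 5 had one (Smc4, Pola2, Rfc2, Rad52 and Rad1).

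Intronic peaks lay closer to exons than those of other protein-coding genes, in a comparison not matched for gene length. The part that length has in it was not tested. The median distance of these intronic peaks to the nearest exon of the gene was 2714 bases, against 5509 in other protein-coding genes, and 24 of 94 (25.5%) lay within 1 kb, against 17.2%. Exon bases lay under 14 of the 94, and made up 52.4% to 73.9% of 5 of them, those of Smc1a, Top1 and Top2b named above. The first 10% of the gene held 4.69% of the 128 peaks (2.17 to 9.85), against 8.40% elsewhere, and the last 10% held 10.9% in both.

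Antisense peaks were counted as well. On the strand opposite the gene 27 of the 100 genes had 48 peaks, against 12.5% of all protein-coding genes with any, not matched for gene length. They went with sense peaks: 21 of the 41 genes with a sense peak had one (51.2%, 36.5 to 65.7), against 25.5% of other protein-coding genes with a sense peak, and 6 of the 59 without (10.2%), against 7.81%. For genes of 30 to 100 kb alone these shares were 15 of 31 (48.4%) against 24.6% with a sense peak, and 3 of 16 (18.8%) against 10.8% without. Fanci had the most antisense peaks, 5, with no sense peak, and 2 of these lay in Polg on the other strand. Fancm had 4, and Top1 had 3, with midpoints 1305, 5909 and 9607 bases after its start and apart from its run of exonic peaks. Of the 48, 12 overlapped a sense peak of the same gene and 6 lay in another annotated gene on their own strand.

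Replication and repair genes that the name rule does not take gave similar counts. In a list of 114 such genes, 52 had a sense peak (45.6%, 36.8 to 54.8), where the 5 length classes would give 37.2, and 38 of their 146 peaks were exonic (26.0%, 19.6 to 33.7). Nsmce2, a SUMO ligase subunit of the complex of Smc5 and Smc6, held 15 and the cohesin subunit Stag1 held 12, all intronic. Pms1 held 8, of which 3 were exonic, the primase subunit Prim2 held 8 intronic ones, and the cohesin regulator Pds5b held 7, of which 1 was exonic. Tdp1, Polk and Zranb3 held 6 each and Apex2 held 5, of which 2 were exonic. Rev3l, the tenth, held 4, as did Stag2, Xpa and Rbbp8.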

How the data were processed

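The authors deposited 1 list of 30998 peaks for the 9 libraries, with a score of 500 in every peak that carries no measurement and was not used. Per the submitters' processing notes the build was mm10, and STAR, Subread and featureCounts were used. How peaks were called or filtered is not given in the sources used here. Peak names carry running numbers with gaps. From the first to the last peak of a gene, 8.60% of the numbers were in the list for Rad51b, 21.6% for Xrcc4 and 77.8% for Top1. What the missing numbers stand for is not given. Peak starts were taken as counted from 0. Genes, transcripts and sequences came from GENCODE M21 (GRCm38). The principal transcript of a gene was the coding one tagged as principal with the longest coding sequence. Purine contents used the transcript holding most of a peak's exon bases, retained-intron transcripts last. Length classes ended at 10, 30, 100 and 300 kb, and the genes of each class outside the name rule gave its share. The planned count-based comparisons between libraries were not run, since the list holds no counts. Depth per library is unknown. The assignment was tested on simulated peaks. The rule for named genes took the first 30 genes with a peak by number of peaks, and the other 11 are named too, except that a few genes counted in the totals are not reported here by name. The members, lists and comparisons were chosen with earlier results of these data known. Tools were Python 3.11.15, scipy 1.17.1, numpy 2.4.6 and matplotlib 3.10.9.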

Additional observations from a re-analysis of the deposited data

How the results depend on the processing

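The number of genes with a peak was 39 to 43 when peaks were assigned by any overlap of at least 1 base, by most of their width or without peaks in more than 1 gene, 33 with only those of 596 bases or wider, the median of the list, and 25 with at least 2 peaks required. The number of peaks was 76 with the wide ones alone. The exonic share of 26.6% was 37.5% when any exon base under the peak counted, 15.8% with the wide peaks alone and 16.5% without the Smc and Top subfamilies, the last chosen after seeing the data. Other protein-coding genes had 21.3% by any exon base and 16.3% with the wide peaks. The purine difference of 3.39 percentage points was -1.67 for peaks wholly inside 1 exon (7 genes), none of which was a coding peak. It was 1.11 with coding bases only (9 genes), and the cause was not tested. The ratio of genes with a peak to the number from length classes, 1.28, was 1.24 to 1.55 under the other settings. No paired analysis was possible because the list has no value per library, and for the same reason no library could be left out.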
